A study of Mus musculus with 32 samples.

Results

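Clone 4, a pre-B-cell clone grown from a single cell, had its rearranged Igκ RNA sequenced in 2 libraries after 48 h without IL-7, and the counts of both are compared here segment by segment. The libraries are 2 of the 32 samples of the series and 2 of its 10 repertoire samples. They were chosen by their labels: 1 was deposited with the other clones and a pre-B-cell pool and is called the clone-set library, and the other is the last point of a series at 12, 24, 36 and 48 h and is called the time-course library. Both were made from poly-A selected RNA of bone marrow derived pre-B cells of adult F1 females between C57BL6 (B6) and Castaneous (Cast) mice, grown on ST2 feeder cells with IL-7, plated at limiting dilution and then deprived of IL-7, so that each cell carries 1 B6 and 1 Cast copy of the locus. Neither library has a knockout or an added agent, and both come from the same clone, so that nothing in the labels but the table separates them. The labels do not say whether they came from 1 culture or 2. The counts cover Igκ V (Vκ) segments only, so that markers of the pre-B cell could not be checked. The clone-set library held 64672 reads assigned to an allele, 46406 on B6 and 18266 on Cast, and the time-course library held 10958, with 8408 on B6 and 2550 on Cast. With 3 reads as the limit of detection, the lowest percent that could be seen was 0.00464% in the clone-set library and 0.0274% in the time-course library.

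The Igκ light chain is assembled in pre-B cells by joining 1 of many Vκ segments to a Jκ segment upstream of the constant exon Cκ. Withdrawal of IL-7, a growth factor of these cells, starts this joining in culture. The recombinase recognises a signal beside each segment that consists of a heptamer, a spacer and a nonamer. Vκ segments fall into families of related sequence, written as the first number of their name, and the second number counts outward from Jκ, except that Igkv4-60 lies nearer to Jκ than Igkv4-59 in mm10. Members of a family share sequence, and are not replicates of each other. In mm10, 111 of the 112 counted segments were found by name in GENCODE M21 on chromosome 6, with 98 annotated as V genes and 13 as V pseudogenes.

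Both libraries were primed in the Cκ exon (chr6:70726435-70726966, plus strand, mm10), so that cDNA synthesis starts from the same place whatever Vκ segment was joined. The primers are shown because they are common to both libraries and their sites bear no Vκ sequence. The first primed cDNA synthesis and matches the minus strand at chr6:70726617-70726636, and the second primed the PCR at chr6:70726457-70726478.
reverse transcription primer: atgctgtaggtgctgtcttt
PCR primer: actggatggtgggaagatggat

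The recombination signals below belong to the segments on which the comparison turns. They were read from the RefSeq genome of GRCm38 (mm10), 5′ to 3′ on the strand of the segment from the base after the V exon, with the heptamer and the nonamer in capitals and the spacer in lower case. Igkv4-68, which was read in the clone-set library only, and Igkv4-69, which was read in both, have the same 28 bases. So do Igkv3-7, which differed between the libraries, and Igkv3-12, which did not. Igkv6-20, the segment nearest to equality, and its close relative Igkv6-29 are set beside each other.
Igkv4-68 (chr6:69304806-69304833, minus strand): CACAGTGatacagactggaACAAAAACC
Igkv4-69 (chr6:69283766-69283793, minus strand): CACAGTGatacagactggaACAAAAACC
Igkv3-7 (chr6:70608037-70608064, plus strand): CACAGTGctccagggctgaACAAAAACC
Igkv3-12 (chr6:70518850-70518877, plus strand): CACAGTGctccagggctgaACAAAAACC
Igkv2-137 (chr6:67556217-67556244, plus strand): CACAGTGatacagccctgaACAAAAACC
Igkv19-93 (chr6:68736269-68736296, minus strand): CACAGTGatacaaatcataACAAAAACC
Igkv5-43 (chr6:69823327-69823354, minus strand): CACAGTGatgcagaccataGCAAAAATC
Igkv6-15 (chr6:70406441-70406468, minus strand): CACAGTActtcagcctcctACATAAACC
Igkv6-20 (chr6:70335813-70335840, minus strand): CACAGTGcttcagcctcccACATAAACA
Igkv6-29 (chr6:70138434-70138461, minus strand): CACAGTGcttcagcctcctACATAAACA
The signal printed for Igkv4-68 is carried letter for letter by 13 Igkv4 segments, of which 5 lay within 2-fold between the libraries and 8 were lower in the time course, 5 of them with under 10 reads there. For comparison, 72.2% of all segments compared lay within 2-fold and 17.8% were lower. The 5 with under 10 reads entered the comparison only through the clone-set library, where they were high. No conclusion is therefore drawn from the count of lower carriers. The signal of Igkv3-7 is carried by 8 Igkv3 segments, of which 5 had enough reads to be compared, 4 within 2-fold and 1 lower. Over the locus, the heptamer CACAGTG, in this orientation and next to the exon, was found in 95 of the 111 segments, or 85.6%. It was found in 23 of the 25 segments that differed over 2-fold and in 59 of the 64 annotated segments that did not.

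The first question was which Vκ segments took the same part of both libraries. Of the 112 segments, 105 had reads in either library, 98 in both, 7 in the clone-set library only and 0 in the time-course library only. The percent of the library was compared for the 90 segments whose mean percent was worth at least 10 reads of the time-course library, which held 99.4% of the reads in each library. Within 2-fold were 65 of them, or 72.2%, and 37 lay within 1.5-fold. The median size of the change was 1.58-fold. Fisher's exact test between the reads of the libraries (two-sided, Benjamini-Hochberg adjusted over the 90 segments) found an adjusted p under 0.05 together with a difference over 2-fold for 25 segments, which is 27.8% of those compared. In the time course 9 of these were higher (10% of those compared) and 16 lower (17.8%). With 1 library on each side, this test compares the 2 libraries and has no replicate check. Reads were amplified by PCR and carry no molecular identifiers, so that all p-values and intervals cover counting error only. At any fold, 67 segments had an adjusted p under 0.05, 31 higher and 36 lower. The median ratio of the percents was 0.874, and with all ratios divided by it 12 segments were higher and 15 lower. With the reads of both libraries divided by 10, a setting that lowers the number of calls by construction, 8 of the 25 still differed, which were Igkv4-68, Igkv3-7, Igkv2-137 and Igkv6-15 among the lower and Igkv17-121, Igkv8-19, Igkv5-43 and Igkv19-93 among the higher.

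**Figure D1:**
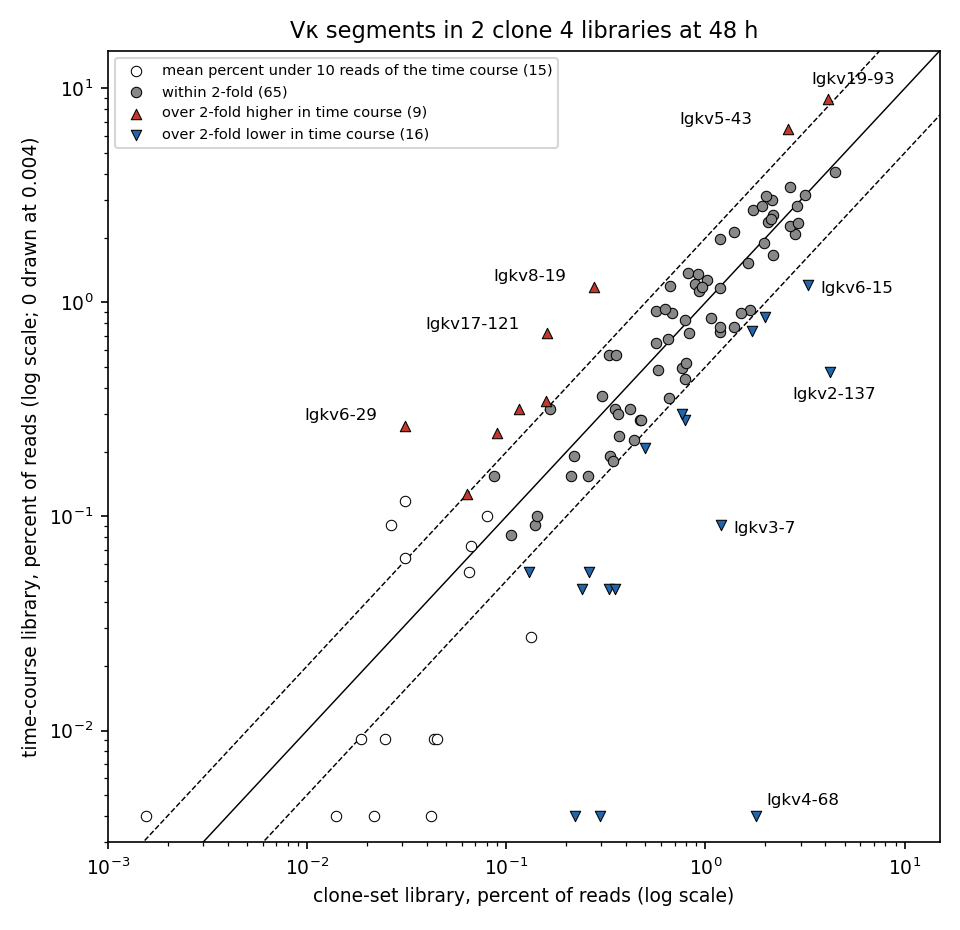
Percent of reads of each of the 105 Vκ segments with reads in the clone-set library (x axis, log scale) and in the time-course library (y axis, log scale), each point 1 segment over both alleles; the solid line marks equality and the dashed lines 2-fold. Of the 90 segments compared, 65 lie between the dashed lines (grey), 9 above (red) and 16 below (blue), 3 of these with no read in the time course; the 15 open circles, some of them also beyond 2-fold, had too few reads to be compared.

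How a segment entered the comparison bears on these counts, since the minimum was set on the mean of the libraries. Of the 90 segments, 77 reached it in each library, and 63 of these lay within 2-fold, 6 were higher and 8 lower. The other 13 reached it in 1 library only, so that they passed through the library in which they were high, and 11 of them differed over 2-fold, 3 higher and 8 lower. Equally rare segments with like percents in both libraries had been left out, so that the counts of differing segments, here and by family or stretch, are a description of those that passed. A minimum in each library, chosen after the values were seen, in turn leaves out segments that were nearly absent from 1 library, such as Igkv4-68. Of the 35 segments with a mean of 1% or more, all of which reached the minimum in each library, 29 lay within 2-fold, with a median size of the change of 1.39-fold. Segments at 1% or more numbered 35 in the clone-set library and 31 in the time-course library, and 24 reached it in both. The 20 segments with most reads in each library had 17 in common, the first 10 had 5 and the first 6 had 3. The percents of the 105 segments had a Pearson's r of 0.769 and a Spearman's rho of 0.838, given as a description, since all segments of a library share its depth and sum to 100.

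The libraries were led by different segments. Igkv5-48 (chr6:69726573-69727138) had most reads in the clone-set library, 2905 or 4.49%, and was the third in the time course with 444 or 4.05%. Igkv19-93 (chr6:68736297-68736780) was the third in the clone-set library with 2680 reads or 4.14% and led the time course with 980 or 8.94%, a ratio of 2.16 (95% interval 2.00 to 2.32, Fisher's exact test, adjusted p = 2.48e-86). Igkv5-43 (chr6:69823355-69823943) followed it in the time course with 712 reads or 6.50%, and was in place 11 in the clone-set library with 1683 reads or 2.60%. Igkv2-137 (chr6:67555497-67556216), the segment farthest from Jκ, was second in the clone-set library with 2721 reads or 4.21%, and in place 53 in the time course with 52 reads or 0.475%. The first 10 segments held 33.2% of the clone-set library and 40.7% of the time-course library.

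Segments at 1% or more of both libraries that came nearest to the same percent were 6, each of another family. Igkv6-20 (chr6:70335841-70336507) had 2050 of 64672 reads, or 3.17%, and 349 of 10958, or 3.18%, a ratio of 1.00 (0.894 to 1.13). Igkv1-110 had 1.18% and 1.17%, and Igkv14-111 (chr6:68256389-68256869) had 2.88% and 2.83%. Igkv12-41 had 1.97% and 1.89%, Igkv2-109 1.63% and 1.52%, and Igkv5-48 the values given above. The intervals of these ratios include 1 for the first 5, and that of Igkv5-48 is 0.814 to 0.997. For Igkv14-111, Igkv12-41, Igkv2-109 and Igkv6-20 this constancy held for the sum of the alleles and not for each allele, as the B6 shares given further on show.

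The largest difference was that of Igkv4-68 (chr6:69304834-69305405, minus strand), a segment in the middle of the locus that is annotated as a V gene. It had 1156 reads in the clone-set library, 1.79%, all on B6, and 0 in the time course, where 3 reads or 0.0274% is the limit of a count of 0. At that limit it was at least 65.3-fold lower. Igkv4-72 had 192 reads and 0, at least 10.8-fold lower, and Igkv4-74 had 144 and 0, at least 8.13-fold lower. These bounds are taken at 3 reads, and the exact 95% intervals of the ratio, which reach up to 0.0189, 0.114 and 0.153, allow somewhat smaller folds. None of these 3 segments had a read in any of the 4 time-course libraries, and each had reads in all 6 clone-set libraries, where Igkv4-68 had 2702 reads for clone 8, 305 for clone 3, 491 for B52, 69 for E93 and 5847 for the pool. Igkv4-74 had 1 read in B52 and 2 in E93, under the limit of 3, and the time-course libraries at 12 and 24 h held 1737 and 1174 reads. The other two segments with at least 10 reads in the clone-set library and none in the time course were Igkv3-5 with 27 reads and Igkv10-94 with 14. At the depth of the time course these are worth 4.57 and 2.37 reads, under the minimum for the test, and the intervals of the ratio are 0 to 0.864 and 0 to 1.78.

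Apart from these, Igkv3-7 (chr6:70607437-70608036, plus strand), a segment near Jκ, showed the largest fold. It had 771 reads or 1.19% in the clone-set library and 10 or 0.0913% in the time course, 13.1-fold lower (ratio 0.0765, interval 0.0366 to 0.142). In the clone-set libraries of the other clones and the pool it had between 1767 and 13907 reads, and in the time course 0, 0, 12 and 10 at 12, 24, 36 and 48 h. Igkv2-137 was 8.87-fold lower (ratio 0.113, interval 0.0840 to 0.148, Fisher's exact test, adjusted p = 4.4e-119). Igkv6-15 (chr6:70406469-70406992), the fourth segment of the clone-set library, fell from 2108 reads or 3.26% to 132 or 1.20%, 2.71-fold lower. Igkv4-60, annotated as a pseudogene, had 228 and 5 reads, 7.73-fold lower. Igkv18-36, the only member of its family, had 168 and 6 reads, 4.74-fold lower, and Igkv15-103 had 511 and 31, 2.79-fold lower.

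In the other direction, Igkv6-29 (chr6:70138462-70139110) was 8.56-fold higher in the time course, although with few reads, 20 or 0.0309% and 29 or 0.265% (interval of the ratio 4.68 to 16.0). Igkv17-121 (chr6:68036812-68037318) had 103 reads or 0.159% and 79 or 0.721%, 4.53-fold higher, and Igkv8-19 (chr6:70340876-70341453) had 178 or 0.275% and 129 or 1.18%, 4.28-fold higher. Igkv1-115, annotated as a pseudogene, and Igkv8-16 were 2.75-fold higher each, from 75 to 35 and from 58 to 27 reads. Igkv5-43 was 2.50-fold higher (interval 2.28 to 2.73, Fisher's exact test, adjusted p = 1.19e-82). Igkv19-93 and Igkv5-43 were the only segments with a mean of 1% or more among the 9 higher ones, and together with Igkv4-91 and Igkv13-85, at 2.20-fold and 2.02-fold, they complete the list.

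**Figure D2:**
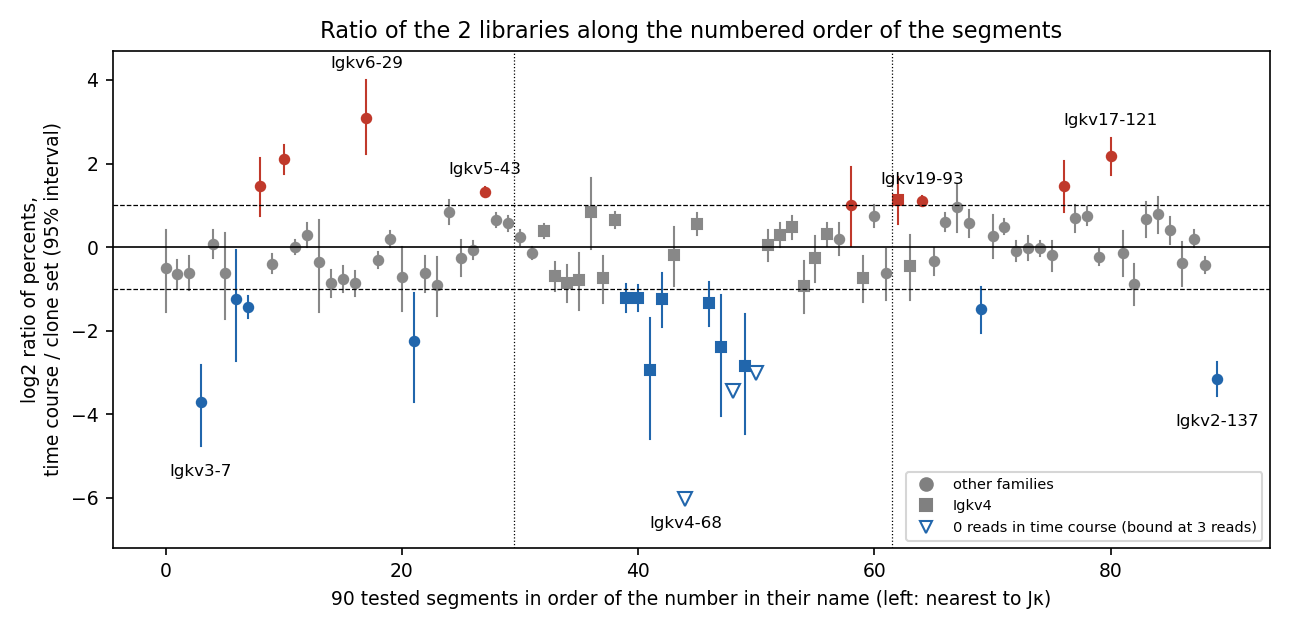
Log2 ratio of the percents of the time-course and clone-set libraries with its 95% counting interval (y axis) for the 90 segments compared, in the order of the second number of their names (x axis); dashed lines mark 2-fold, dotted lines divide numbers 1 to 45, 46 to 90 and 91 and above, and open triangles are bounds for segments with no read in the time course. Many of the lower segments drawn (blue) are Igkv4 segments numbered 58 to 74, whereas the higher ones (red) are scattered. Of the lower Igkv4 segments numbered 60 to 74, 6 reached the minimum in the clone-set library only, where they were high. No conclusion is therefore drawn from their number.

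Several of the segments that differed have a close relative, and a read of 1 can be counted for the other. How often this happened was not tested. Of the 25 segments, 15 were over 95% identical in the V exon to another counted segment, against 29 of the 64 annotated segments within 2-fold, and the median identity to the closest relative was 95.5% and 94.1%. Pairs of segments that were each other's closest relative at over 95% identity were therefore summed, a step chosen after the values were seen. There were 21 such pairs, of which 9 held a segment that had differed over 2-fold. As a sum 4 of these 9 differed over 2-fold, and so did Igkv3-10 and Igkv3-5, neither of which had been compared singly. Igkv8-19 and Igkv8-28, which differ at 7 of 305 aligned bases, moved in opposite directions, Igkv8-28 from 1.68% to 0.922%, and their sum was 1.95% and 2.10% (ratio 1.08, interval 0.931 to 1.24). The sum of Igkv6-20 and Igkv6-29, which differ at 5 of 295 bases, was 3.20% and 3.45%. In contrast, Igkv5-43 and Igkv5-45, which differ at 3 of 298 bases, were both higher and their sum went from 4.52% to 9.34% (ratio 2.07, interval 1.92 to 2.22). The sum of Igkv17-121 and Igkv17-127 remained 2.63-fold higher, and that of Igkv3-7 and Igkv3-12 stood at 1.98% and 0.922%. With pairs summed, 19 of 76 units differed over 2-fold, or 25%. The B6 share of 27 of 69 units had an adjusted p under 0.05 by Fisher's exact test, 17 higher and 10 lower. For segments taken singly it was 29 of 84.

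Most families differed by less than 2-fold. Of the 18 families with enough reads, 4 differed over 2-fold, or 22.2%, and in 15 the adjusted p was under 0.05 at any fold (83.3%). Igkv17 was higher and Igkv15 and Igkv18 were lower, all under 1.5% of either library, and Igkv19, which is Igkv19-93 alone, was higher. Igkv4, the largest family with 30 segments, held 21.8% of the clone-set library and 17.5% of the time-course library (ratio 0.803, interval 0.765 to 0.842). Igkv5 held 10.4% and 15.1%, and Igkv6 12.6% and 9.93%. Igkv2 fell from 7.23% to 3.63% (ratio 0.502, interval 0.452 to 0.556) and Igkv3 from 4.33% to 2.35%. The families nearest to equality were Igkv14 with 3.51% and 3.76%, Igkv9 with 4.05% and 3.62%, Igkv8 with 7.77% and 7.02%, and Igkv1 with 9.01% and 9.98%. Igkv12 held 7.62% and 8.82%, with 7 of its 7 compared segments within 2-fold, and in Igkv1 this held for 7 of 8, beside 72.2% of all segments compared.

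**Figure D3:**
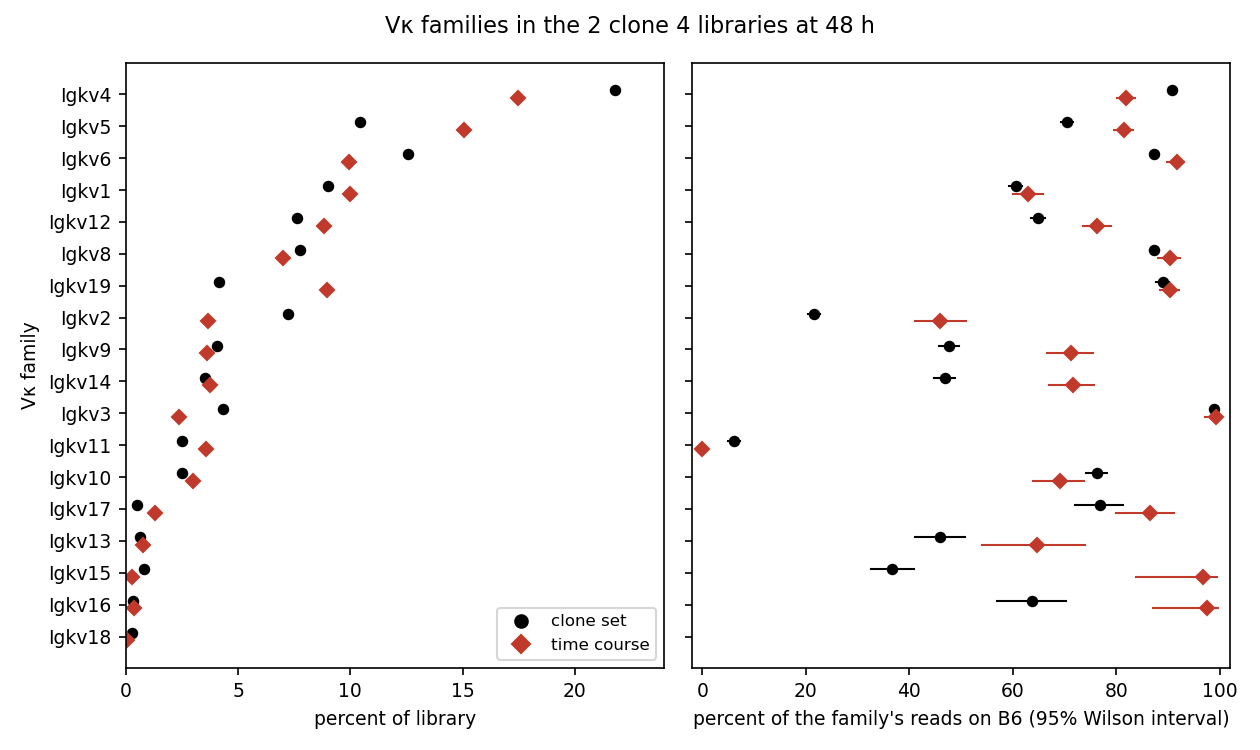
Percent of the library (left) and percent of the family's reads on B6 with 95% Wilson interval (right) for the 18 Vκ families compared, in the clone-set library (black circles) and the time-course library (red diamonds); the B6 share of Igkv18 is not drawn, since it had 6 reads in the time course. Igkv4 was lower in the time course on both axes, and Igkv2, Igkv9 and Igkv14 had a higher B6 share.

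In Igkv2, Igkv5 and Igkv6 most of the difference lay in a single segment and in Igkv4 in a stretch of neighbours, which were left out in turn after the values were seen. Without Igkv2-137, Igkv2 held 3.02% and 3.16% (ratio 1.04, interval 0.929 to 1.17). Without Igkv5-43, Igkv5 held 7.84% and 8.58%, and without Igkv6-15, Igkv6 held 9.33% and 8.72%. Igkv3 without Igkv3-7 held 3.13% and 2.25% (ratio 0.719, interval 0.628 to 0.821), so that part of its decrease lay in its other segments. Of the 28 Igkv4 segments compared, 17 lay within 2-fold, 1 was higher and 10 were lower, beside 72.2%, 10% and 17.8% of all segments compared, and of the 21 that reached the minimum in each library 16 lay within 2-fold, 1 was higher and 4 were lower. The 11 Igkv4 segments numbered 60 to 74 went from 5.64% to 2.20% (ratio 0.390, interval 0.341 to 0.444), and 8 of the 10 compared were lower, in a stretch that was bounded with these values in view. Of these 8, 6 reached the minimum in the clone-set library only, and of the 4 that reached it in each library 2 were lower, so that the count is not set against that of all segments. Those numbered 50 to 59 held 10.9% and 9.57%, and those numbered 75 to 92 held 5.20% and 5.71%. Within the low stretch, Igkv4-69 went the other way, with 595 reads or 0.920% and 149 or 1.36%, and Igkv4-63 had 0.218% and 0.192%.

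By position, the J-proximal segments numbered 1 to 45 held 35.9% and 36.1% (ratio 1.01, interval 0.974 to 1.04). The middle segments numbered 46 to 90 held 29.9% and 26.0%, and those numbered 91 and above 34.2% and 37.9%. None of these 3 stretches differed by as much as 1.5-fold, although single segments within each differed over 2-fold.

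The second question was whether the alleles repeated. The B6 share of all reads was 71.8% (95% Wilson interval 71.4 to 72.1) in the clone-set library and 76.7% (75.9 to 77.5) in the time course, 4.97 percentage points higher (Fisher's exact test, two-sided, p = 8.58e-28). Much of this change lay in Igkv2-137, whose Cast reads were 4.06% of the clone-set library and 0.475% of the time-course library. The unweighted mean over segments, given in the closing section, was smaller. Each allele of a segment was then compared as a percent of its library. On B6, 54 of 79 segments were within 2-fold, or 68.4%, and on Cast 30 of 50, or 60%. Counting each allele of each segment separately, 43 of 129 differed over 2-fold with an adjusted p under 0.05 (33.3%), with 9 higher and 15 lower on B6 and 7 higher and 12 lower on Cast.

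Segment by segment, the B6 share was compared for the 84 segments with at least 10 reads in each library. The allele with most reads was the same for 74 of them, and 63 stayed in the same class of over 80% B6, over 80% Cast or between. The median size of the change was 7.90 percentage points. Fisher's exact test of B6 against Cast reads (adjusted over the 84 segments) called 29 segments, or 34.5%, with 19 higher (22.6%) and 10 lower (11.9%) in the time course. Of the 29, 22 kept the same majority allele. Pearson's r of the shares was 0.845 and Spearman's rho 0.812, a description across segments that includes those on 1 allele only. Among the 39 segments with 20 to 80% of reads on B6 in the clone-set library, r was 0.535 and rho 0.434.

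**Figure D4:**
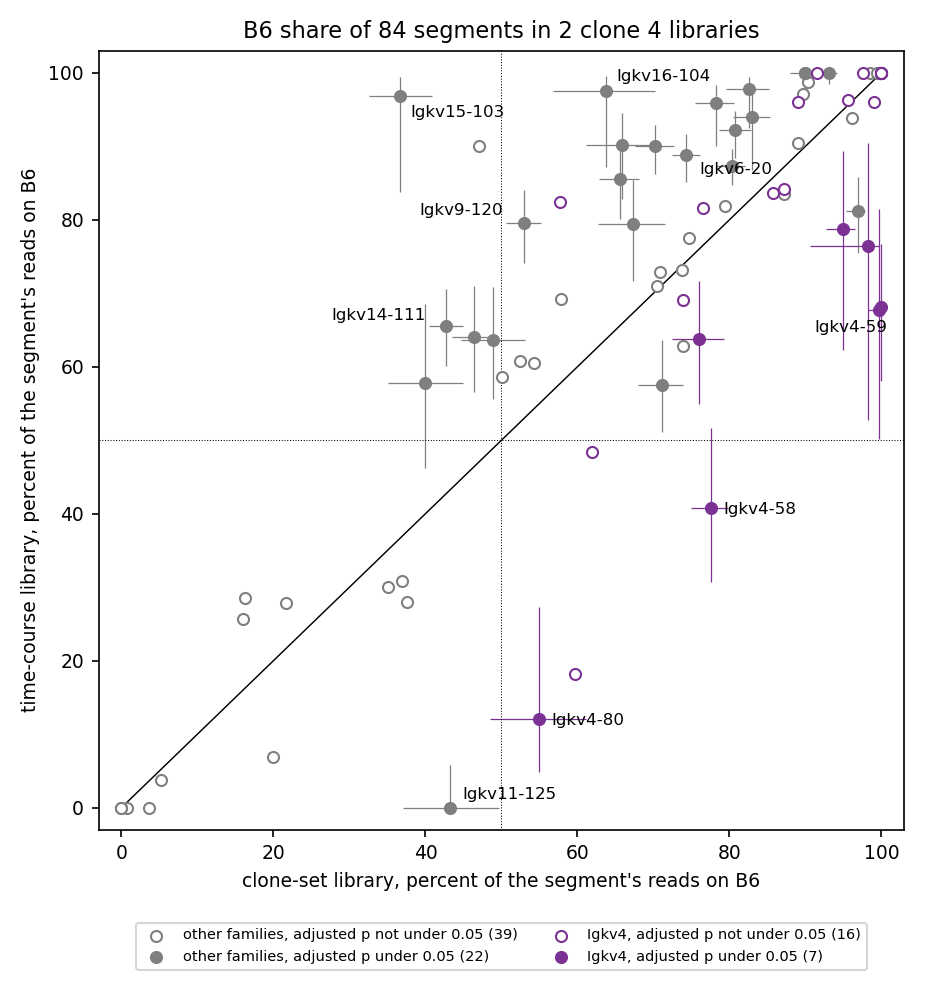
Percent of each segment's reads on B6 in the clone-set library (x axis) and in the time-course library (y axis) for 84 segments, with 95% Wilson intervals for those with an adjusted p under 0.05 (filled points); Igkv4 segments are purple and dotted lines mark 50%. The filled Igkv4 points lie below the line of equality, and most other filled points lie above it. A segment at 100% in the clone-set library, such as Igkv4-59, cannot lie above the line.

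Among the 84 segments compared, all reads were on B6 in both libraries for 9. These include Igkv12-44 with 1302 and 345 reads and Igkv4-57 with 1116 and 297. Igkv11-106, annotated as a pseudogene, had 0 B6 reads among 1393 and 331, and Igkv12-40, another pseudogene, 0 among 374 and 53. Igkv19-93 had 89.0% (2384 of 2680 reads) and 90.4% (886 of 980), and Igkv5-48 had 73.7% and 73.2%, neither with an adjusted p under 0.05. Igkv2-137 was mostly on Cast in both, with 97 B6 and 2624 Cast reads and 0 and 52.

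The called changes of Igkv4 segments and of segments of other families were mostly of opposite sign, which was not tested as a difference. Of 23 Igkv4 segments, 0 had a higher and 7 a lower B6 share in the time course by the adjusted test. Several of them, such as Igkv4-59, Igkv4-57 and Igkv4-75, were at 100% in the clone-set library, where no rise was possible. The count of 0 is thus partly set by this limit. Some Igkv4 segments rose without a call, such as Igkv4-92 from 57.7% to 82.4%. Of 61 segments of other families, 19 had a higher and 3 a lower share. With each allele scaled to its own total, which removes the difference between the libraries as a whole, 14 segments were higher and 17 lower, with 0 and 10 of Igkv4 and 14 and 7 of other families. With reads divided by 10, 1 call was left, Igkv4-59. The Igkv4 family as a whole had 90.7% of reads on B6 in the clone-set library and 81.8% in the time course (Fisher's exact test, adjusted p = 2.31e-27), while all other families had 66.5% and 75.6%. The B6 share was higher in Igkv14, with 46.9% and 71.6%, in Igkv2, with 21.5% and 46%, in Igkv9, with 47.7% and 71.3%, in Igkv12, with 64.9% and 76.3%, and in Igkv5, with 70.5% and 81.5%. Outside Igkv4 it was lower in Igkv11, with 6.10% and 0% (Fisher's exact test, adjusted p = 7.4e-10), and in Igkv10, with 76.2% and 69.0% (Fisher's exact test, adjusted p = 0.0107). Within Igkv10 the 2 segments compared went opposite ways, Igkv10-96 from 71.1% to 57.5% and Igkv10-95 from 82.5% to 97.8%. In the Igkv2 family, Igkv2-137 carried most of the change, and without it the share was 46.4% and 52.9%. Igkv1 had 60.5% and 63.0%, and Igkv3 98.9% and 99.2%, without an adjusted p under 0.05. Of the 17 families with at least 10 reads in each library, 14 were called, or 82.4%.

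Along the numbering, the share went from 82.8% to 88.3% for segments 1 to 45, from 83.3% down to 76.8% for 46 to 90, which hold most Igkv4 segments, and from 50.1% to 65.6% for 91 and above. Leaving out Igkv2-137 and Igkv19-93 from the last group, it went from 51.4% to 58.9%.

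Among the 84 segments compared, the largest rise was that of Igkv15-103 (chr6:68437440-68437925, plus strand), with 187 B6 and 324 Cast reads in the clone-set library, 36.6% (interval 32.5 to 40.9), and 30 and 1 in the time course, 96.8% (83.8 to 99.4). Its neighbour Igkv16-104 had 125 and 71 reads, 63.8%, and 39 and 1, 97.5%. On B6, Igkv15-103 took 0.289% and 0.274% of the library (ratio 0.947, interval 0.621 to 1.40), and its difference lay in the Cast reads. Igkv9-120 went from 52.9% (910 of 1720 reads) to 79.5% (198 of 249), Igkv14-100 from 65.8% to 90.2%, Igkv14-111 from 42.7% to 65.5%, and Igkv12-41 from 65.5% to 85.5%. Igkv6-20, the segment whose total came nearest to equality, had 1524 B6 and 526 Cast reads and then 310 and 39, or 74.3% and 88.8% (Fisher's exact test, adjusted p = 3.18e-09). Of the 28 segments numbered 1 to 45 compared, 10 had a called higher B6 share and 0 a lower one, beside 22.6% and 11.9% of all segments compared. Their Cast reads were mostly fewer, although a few segments went the other way. Igkv8-30 had 1756 B6 and 129 Cast reads and then 258 and 0, and Igkv8-28 had 975 and 109 and then 101 and 0. Igkv6-25 had 763 and 213 and then 94 and 4, so that its Cast allele was 9.02-fold lower. In contrast, Igkv6-29 had 16 and 27 Cast reads, 9.96-fold higher, and Igkv8-16 had 55 and 26, 2.79-fold higher. These 2 segments had few reads, and neither had an adjusted p under 0.05 for the B6 share.

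Among the same 84 segments, the largest fall was that of Igkv11-125 (chr6:67913573-67914052, plus strand), with 99 B6 and 130 Cast reads in the clone-set library, 43.2% (interval 37.0 to 49.7), and 0 and 62 in the time course, where a count of 0 allows up to 3 of 62 reads. Its B6 allele was not read in the 4 time-course libraries and had between 55 and 361 reads in each of the 6 clone-set libraries. Igkv4-80 went from 54.9% (129 of 235 reads) to 12.1% (4 of 33), and Igkv4-58 from 77.5% (858 of 1107) to 40.7% (33 of 81). Igkv4-59 had 1285 B6 and 0 Cast reads in the clone-set library and 64 and 30 in the time course, so that its Cast allele was at least 59-fold higher at the limit of 3 reads, with an exact 95% interval of the ratio that starts at 45.1. At 12, 24 and 36 h it had 3, 1 and 11 Cast reads. In the clone set, Igkv4-59 had 0 Cast reads in clone 4, clone 8 and the pool, and 14, 9 and 6 in clones 3, B52 and E93. Igkv4-73, with too few reads in the time course to be compared, had 212 B6 and 0 Cast reads and then 1 and 4. Igkv4-57-1 had 306 and 1 and then 21 and 10, and Igkv4-56 had 55 and 1 and then 13 and 4. Outside Igkv4, Igkv1-117 went from 96.9% to 81.2%, with its Cast allele 10.1-fold higher, and Igkv10-96 from 71.1% to 57.5%.

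The majority allele changed for 10 of the 84 segments. From Cast to B6 went 6 segments, which were Igkv9-123, Igkv14-111, Igkv2-109, Igkv15-103, Igkv1-88 and Igkv13-84. The B6 share of Igkv2-109 was 46.4% in the clone-set library and 64.1% in the time course. From B6 to Cast went 4, which were Igkv4-90, Igkv4-86, Igkv4-80 and Igkv4-58, all of the Igkv4 family. The adjusted p was not under 0.05 for Igkv9-123, Igkv4-90 and Igkv4-86. Of 81 segments compared on both measures, 40 were within 2-fold in percent and had no adjusted p under 0.05 for the B6 share.

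The alleles of 7 segments had also been assayed by restriction analysis in the study, on DNA bound to modified histones and on unrearranged RNA. Those values measure another quantity and are not compared here. The 2 libraries are set side by side for these segments. Igkv19-93 kept its B6 share, as given above. Igkv6-32 had 80.8% (1114 of 1379 reads) and 92.2% (248 of 269), a change with an adjusted p of 9.68e-06 by Fisher's exact test, at 2.13% and 2.45% of the library. Igkv4-91 had 76.5% (78 of 102) and 81.6% (31 of 38), without an adjusted p under 0.05. Igkv7-33 had 26 B6 and 16 Cast reads and then 1 and 5, and Igkv18-36 had 86 and 82 and then 1 and 5, too few in the time course to be compared. Igkv15-103 and Igkv16-104 are described above.

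The other libraries show how far these differences belong to the 48 h samples. The clone 4 library at 36 h, of 7092 reads, is deposited with the time course. For 22 of the 25 segments that differed over 2-fold at 48 h, its percent was nearer, on a log scale, to the time-course library. Igkv2-137 was at 0.494%, Igkv6-15 at 0.917% and Igkv5-43 at 4.92%. By plain difference, Igkv17-121 (0.409%) and Igkv8-19 (0.578%) were instead nearer to the clone-set library, and Igkv4-60 (0.141%) to the time course. The B6 share at 36 h was nearer to the time-course library for 24 of the 28 called segments with at least 10 reads at 36 h. Igkv6-20 was among the exceptions, with 71.0% at 36 h. Neither count was made over all segments compared, so that they do not set the differing segments apart from the others. As a Bray-Curtis dissimilarity, in which 0 means the same repertoire, the distance was 0.228 between the libraries of clone 4 at 48 h, 0.117 between 36 and 48 h in the time course, 0.186 between clones 4 and 8 in the clone set, and 0.307 between clone 8 of the clone set and clone 4 of the time course at 48 h. In the same order, 65 of 90, 76 of 87, 66 of 90 and 49 of 90 segments lay within 2-fold, and the median difference of the B6 share was 7.90, 1.97, 3.55 and 10.4 percentage points. The libraries of clone 4 at 48 h had a larger dissimilarity and a larger difference of the B6 share than either pair within a table, while the count within 2-fold was 1 segment below that of clones 4 and 8. These are descriptions with no test, and clone 8 is the only other clone compared. Culture, preparation, sequencing run and depth may all differ between the tables, and cannot be told apart. The study's methods give 2 read lengths for these libraries without naming which had each, and the part of read length in these differences was not tested.

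**Figure D5:**
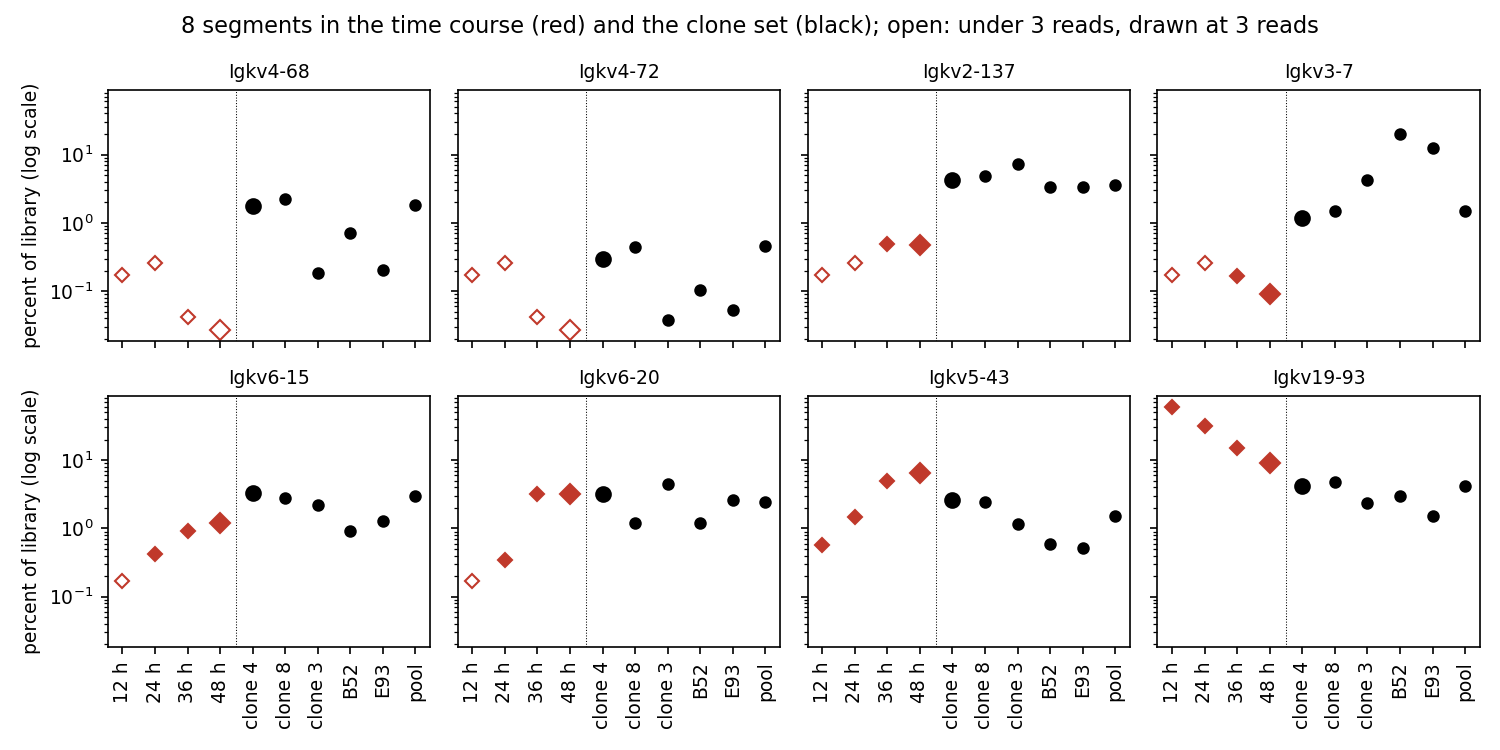
Percent of the library (y axis, log scale) of 8 segments in the 4 time-course libraries of clone 4 (red diamonds) and the 6 clone-set libraries (black circles), with the pair at 48 h drawn larger; open symbols had under 3 reads and are drawn at the percent of 3 reads. Igkv4-68 and Igkv4-72 had no read in the time course and were read in every clone-set library, and Igkv6-20 had 3.17% and 3.18% in the pair.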

How the data were processed

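Rearranged Igκ RNA was selected for poly-A, copied from a Cκ primer, joined to an adapter and amplified by PCR. After quality trimming, the authors mapped reads (bowtie2) against a genome that joins the B6 and Cast sequences, and deposited the raw read counts of HTseq-count for 112 Vκ segments on each allele. A read on bases that both alleles or relatives share can thus be lost or placed on either. Versions of these programs are not given in the sources used here. From the deposited counts, percents, ratios with exact 95% intervals, B6 shares with 95% Wilson intervals and Fisher's exact tests with Benjamini-Hochberg adjustment were computed (Python 3.11.15, SciPy 1.17.1, pandas 2.3.3, NumPy 2.4.6, figures with matplotlib 3.10.9, identities with Biopython 1.88). Segments needed a mean percent worth 10 reads of the shallower library, or 10 reads in each library for the B6 share, and were called over 2-fold with an adjusted p under 0.05. With 1 library on each side no count model was fitted. Signals, coordinates and gene types come from RefSeq GRCm38 and GENCODE M21 on mm10.

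Named by rule were the 6 segments with most reads in each library, the 6 with the largest fold and the 6 with the largest called change of B6 share in each direction, the 6 nearest to equality, those with at least 10 reads in 1 library and 0 in the other, the 7 assayed by restriction analysis, and families of at least 1% of either library. Any other segment was named with its values known. The members and lists were chosen with earlier results of these data known. Alternatives varied the read minimum, the fold, the scaling, the segments included and the reads, divided by 10.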

Additional observations from a re-analysis of the deposited data

How the results depend on the processing

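No paired analysis was possible because each repertoire sample is 1 library, and numbered replicates exist only for the other assays of the series. The number of segments that differed, 25 with 9 higher and 16 lower, depended on the fold required. It was 50 (19 and 31) over 1.5-fold, 12 (3 and 9) over 3-fold and 67 (31 and 36) at any fold. Counted by allele, the 43 became 69 over 1.5-fold, with 29 higher, 22 over 3-fold (5 and 17) and 88 at any fold (44 and 44). Division of all reads by 10, which lowers calls by its construction and measures no PCR copying, left 8 (4 and 4) for segments and 11 (5 and 6) by allele. The same division left 1 of 29 calls of the B6 share (0 higher and 1 lower), 2 families for the percent with 0 lower, and 5 families for the B6 share (4 and 1). A change over 20 percentage points was reached by 11 called segments (5 and 6). The lower B6 shares numbered 17 with each allele scaled to its own total and 3 without Igkv4, a setting chosen after seeing the data. The unweighted mean over segments put the change of the B6 share at 1.96 percentage points in place of 4.97, and the sign held under every alternative for the whole library. Without Igkv19-93, 1 family was higher, and with at least 50 reads 1 was lower. Absent from the time course were 3 segments rather than 5 with at least 50 reads or with at least 10 expected. With the minimum required in each library, also chosen after seeing the data, 14 segments differed (6 and 8). Other read minimums, leaving out Igkv19-93, or restricting the scaling to segments read in both libraries kept the counts of differing segments within 1.5 times. For the 36 named segments compared in percent, 381 of 412 alternative values kept the call and 0 reversed. For the 31 compared in B6 share, 226 of 256 kept it and 1 reversed, Igkv6-20, with a change of -3.36 percentage points when the 36 h library replaced that at 48 h, also chosen after seeing the data.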
